A study of Arabidopsis thaliana with 12 samples.

Results

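The light-harvesting antennae and the nuclear-encoded subunits of photosystems I and II were followed through 42 Arabidopsis genes, selected by locus as members of the LHCB, LHCA, PSA and PSB families. The table of transcript levels lists 33557 loci, and all 42 were found in it. There were 14 LHCB genes, 6 LHCA genes, 12 PSA genes and 10 PSB genes. Levels are FPKM, fragment counts scaled to transcript length, so that genes can be compared within a sample. Library size was scaled by the authors with a geometric normalization. The summed FPKM still differed between samples, and comparisons between samples depended in part on the scaling chosen. The plants were of the Columbia 0 ecotype and 5 weeks old, and the RNA came from leaves. All were grown with 8 h of light per day at 120 µmol per square metre per second. Wild-type (WT) plants were held at 23 °C (non-stress, NS) or exposed to 37 °C for 30 min (heat stress, HS) and frozen at the end of the exposure. The 35S:HSFA1b plants carry HSFA1b, a heat shock transcription factor, as a fusion to a red fluorescent protein (RFP) under the constitutive 35S promoter in the same ecotype, and were sampled under the same 2 conditions. The promoter is not specific to leaves, and 1 such line was used. The genotype field of the labels reads wild type for all libraries, and the titles, which name the overexpressor, were followed. Each of the 4 groups had 3 columns of values, numbered 0 to 2 by the authors, one per replicate.

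Photosystem II splits water and photosystem I reduces ferredoxin, and both are fed with excitation energy by chlorophyll-binding antenna proteins. LHCB proteins form the antenna of photosystem II and LHCA proteins that of photosystem I, while PSB and PSA genes encode further subunits of these photosystems. The largest reaction centre subunits are encoded in the chloroplast genome and are not among these genes. In leaves the nuclear set is transcribed in the light under the control of factors such as GLK1, GLK2 and HY5, and its proteins are made in the cytosol and imported into the chloroplast.

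The columns of a group did not agree equally well for these genes, so each column is given. The summed FPKM of all loci ran from 632840 to 956978 in the NS columns and from 758630 to 1280258 in the HS columns. Within WT NS, 41 of the 42 genes were lowest in column 0, intermediate in column 1 and highest in column 2. The coefficient of variation over the 3 WT NS columns had a median of 11.1% and reached 27.2% for PSBX, which was at 4329, 4744 and 2720 FPKM. Within WT HS, 41 of the 42 genes were lowest in column 2. Within 35S:HSFA1b NS the columns fell apart, with all 42 genes highest in column 2. The median gene stood at 35.6% and 37.3% of its WT NS mean in columns 0 and 1 of this group and at 76.2% in column 2. The 35S:HSFA1b HS columns lay together at 45.6%, 44.7% and 42.4%.

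These deviations followed the level of a transcript in other genes too. For the 58 other genes with a WT NS mean from 1000 to 3000 FPKM, the median deviation from the WT NS mean on the log2(FPKM + 0.01) scale was -0.93, -0.92 and -0.37 in the 35S:HSFA1b NS columns. For the 9 others above 3000 FPKM it was -1.57, -1.58 and -0.33, beside -1.55, -1.48 and -0.38 for the 31 photosystem and antenna genes above this level. For the 5307 other genes between 10 and 30 FPKM the same medians were 0.01, 0.02 and -0.04. In the 35S:HSFA1b HS columns the 9 other genes above 3000 FPKM were at -1.43, -1.31 and -1.47 and the 31 photosystem and antenna genes at -1.21, -1.21 and -1.32. Thus the medians of other highly expressed genes were also low in columns 0 and 1 of 35S:HSFA1b NS and in all 3 columns of 35S:HSFA1b HS. In column 2 of 35S:HSFA1b NS they were much less so. These other genes were not sorted by function and include genes of photosynthesis, such as the ferredoxin gene FD1. The parts of level and of function in these deviations were not tested. The labels carry 2 submission numbers, of which one is shared by all 6 WT libraries and 1 of 35S:HSFA1b NS, and the other by the remaining 2 libraries of 35S:HSFA1b NS and all 3 of 35S:HSFA1b HS. Columns could not be matched to single libraries, so no comparison within a submission was made, and for HS the genotype and the submission cannot be told apart. The HSFA1b transcript itself was at most 7.31 FPKM in the WT columns and between 330 and 624 FPKM in the 35S:HSFA1b columns.

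**Figure D1:**
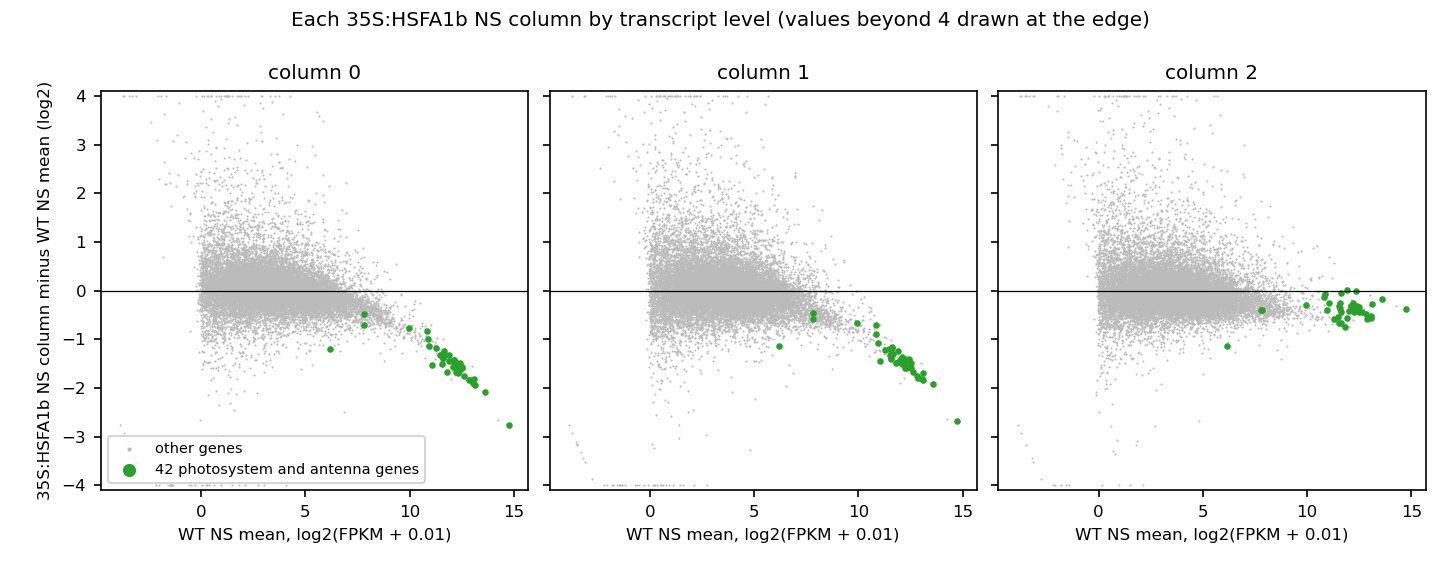
Deviation of each 35S:HSFA1b NS column from the WT NS mean (y axis, log2) against the WT NS mean on the log2(FPKM + 0.01) scale (x axis), for genes with a WT NS mean of at least 1 FPKM. Each point is a gene, green for the 42 photosystem and antenna genes, and in columns 0 and 1 both these and the other abundant transcripts fall further below 0 the higher their level, while in column 2 those above 3000 FPKM have a median of -0.38.

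The markers fitted leaf tissue. All 5 mesophyll markers, among them genes of the Rubisco small subunit and Rubisco activase, were above 0 in all columns, with summed levels of 33240 to 42949 FPKM in WT NS, 29798 to 40997 in WT HS, 9992 to 30677 in 35S:HSFA1b NS and 11115 to 12275 in 35S:HSFA1b HS. These markers were therefore low in the same columns as the photosystem genes, and they are counted among the other genes grouped by level above. Markers of flower and seed, 3 genes each, stayed below 1 FPKM in every column. Of 3 root markers 2 stayed below 1 FPKM, and the third, PYK10, a beta-glucosidase of endoplasmic reticulum bodies, was at 13.7 to 15.7 FPKM in WT NS and 39.6 to 41.6 FPKM in 35S:HSFA1b NS. The 2 guard cell markers summed to at most 32.9 FPKM in any column and the phloem marker SUC2 lay between 56.9 and 98.2 FPKM. The RNA is from whole leaf material, in which fewer cells of a type and less of a transcript per cell cannot be told apart, and the part of these differences in the results below was not tested.

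The 42 genes spanned a wide range of levels in unstressed WT leaves. CAB1 (AT1G29930), also named LHCB1.3, which encodes a copy of the main trimeric antenna protein LHCB1, was the most abundant transcript of the whole table in WT NS, at 24698, 27986 and 30644 FPKM. At the other end LHCB4.3 (AT2G40100) was at 63.1, 64.4 and 92.5 FPKM. In all, 38 of the 42 genes had a WT NS mean above 1000 FPKM, a level reached by 67 other loci, and 34 of them were among the 50 highest loci. Below CAB1 followed LHB1B2 (AT2G34420, LHCB1.5) at 12444 ± 1203 FPKM (SD, n = 3) and CAB2 (LHCB1.1) at 8938 ± 1038 FPKM (SD, n = 3). From there to PSBO2, at 1828 ± 220 FPKM (SD, n = 3), neighbours in the order were not separated, since the WT NS columns of each overlapped with those of the next. Of the 41 neighbouring pairs, 36 overlapped in this way. The breaks were between CAB1 and LHB1B2, LHB1B2 and CAB2, PSBO2 and PSAE-2, PSAE-2 and Lhca6, and Lhca5 and LHCB4.3. The low end was made up of PSAE-2 at 997 ± 99.1 FPKM (SD, n = 3), a copy of a stromal photosystem I subunit, and of Lhca6 and Lhca5 at 228 ± 40.0 and 226 ± 31.7 FPKM (SD, n = 3 each). The last pair encodes minor antenna proteins that join photosystem I to the NADH dehydrogenase-like complex of the chloroplast.

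**Figure D2:**
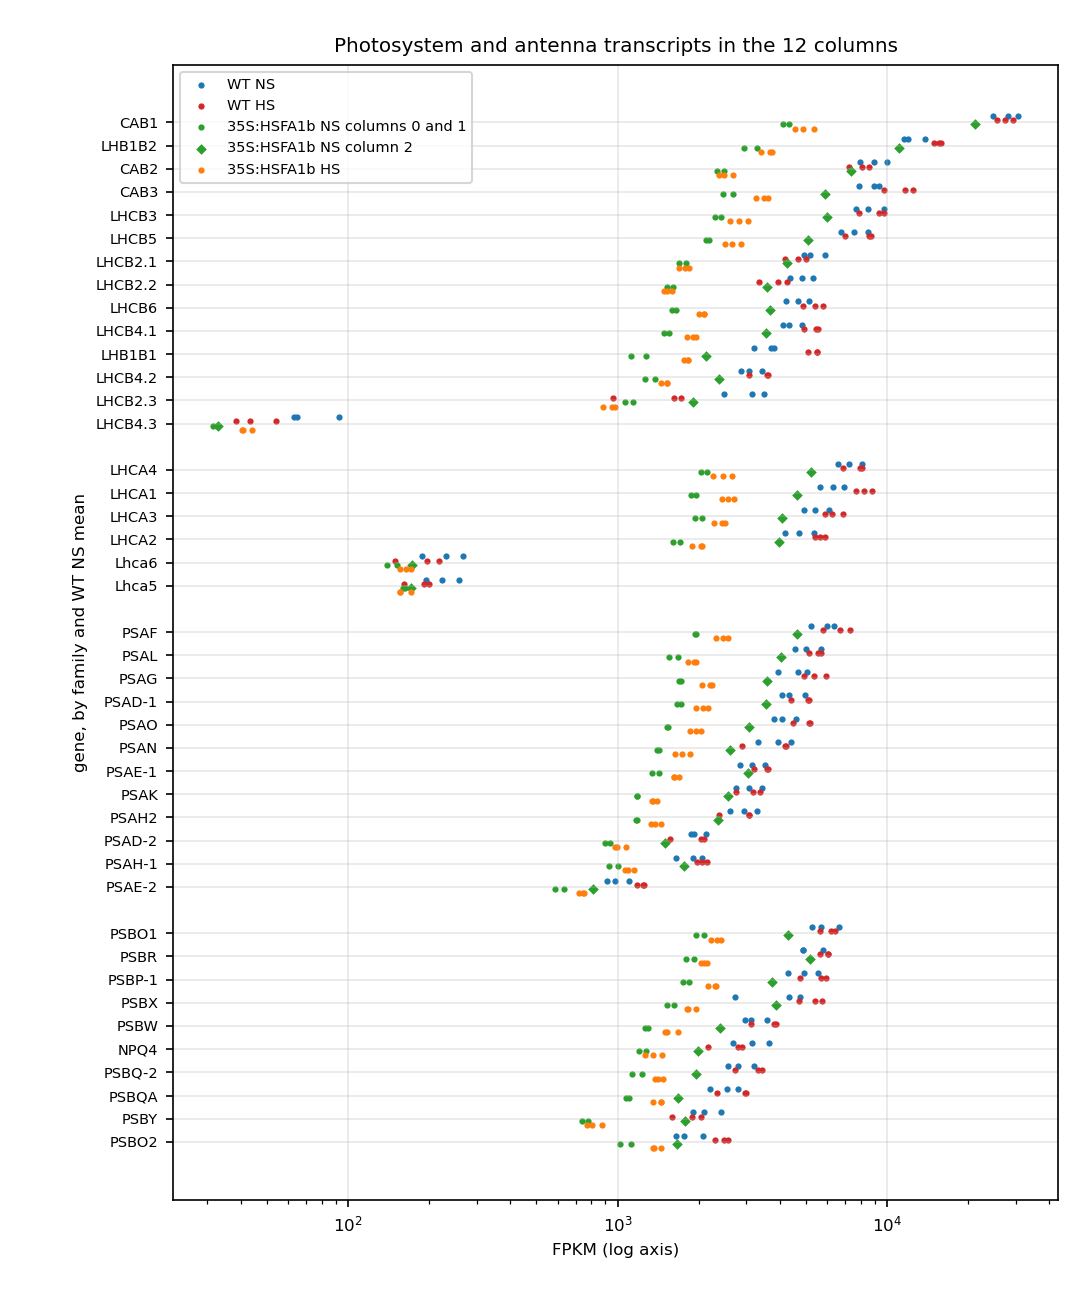
FPKM of the 42 genes on a log axis, with genes in rows by family and by WT NS mean and each point 1 column (blue WT NS, red WT HS, green 35S:HSFA1b NS with column 2 as a diamond, orange 35S:HSFA1b HS). Most rows show WT NS and WT HS side by side, the green circles and orange points to the left of them and the green diamond between, whereas for LHCB4.3 the diamond sits with the circles at 31.5 to 32.8 FPKM.

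The 5 LHCB1 copies are close relatives, which bears on how far their levels can be separated. CAB3, CAB2 and CAB1 lie next to each other on chromosome 1 (chr1:10472280-10473502, chr1:10474656-10475969 and chr1:10477885-10479114 in TAIR10.1, the first 2 on the minus strand), and LHB1B2 and LHB1B1 on chromosome 2 (chr2:14522524-14523568 on the minus strand and chr2:14524607-14525918 on the plus strand). The first 60 coding bases of each, read from the RefSeq genome of TAIR10.1, are shown with capitals at the bases that differ from CAB1 at the same position:
CAB1: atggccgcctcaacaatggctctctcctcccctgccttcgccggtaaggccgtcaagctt
CAB2: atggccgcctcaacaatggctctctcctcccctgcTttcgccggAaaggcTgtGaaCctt
CAB3: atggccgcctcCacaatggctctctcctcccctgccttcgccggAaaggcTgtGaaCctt
LHB1B1: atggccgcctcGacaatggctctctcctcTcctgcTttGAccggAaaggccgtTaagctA
LHB1B2: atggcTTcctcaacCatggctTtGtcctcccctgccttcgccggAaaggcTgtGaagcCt
CAB2 and CAB3 each differ from CAB1 at 5 of these bases, LHB1B1 at 8 and LHB1B2 at 9. Over the whole coding sequence, CAB1, CAB2 and CAB3 were 95.6% to 96.4% identical to each other and LHB1B1 and LHB1B2 were 91.4% identical. Of all 50-base windows of their transcripts, 10.6% (CAB3) to 20.5% (CAB2) also occurred in another gene. The same held for 22.7% and 28.2% of the windows of LHCB2.1 and LHCB2.2, which share them with each other, and for 8.76% of those of LHCA2. The remaining 34 genes had no such window, LHCB2.3 and LHCB4.3 among them. Levels of single LHCB1 copies, of LHCB2.1 and of LHCB2.2 are therefore less certain than those of the other genes. Among the 42, 16 overlap a gene on the opposite strand in the annotation, and whether the authors counted by strand is not given in the sources used here. The partners listed in the table were at most 74.3 FPKM.

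The first comparison asked what 30 min at 37 °C did to these transcripts in WT leaves. It was small for most of them. LHCB2.3 and LHCB4.3 fell past the threshold of a limma adjusted p of 0.05, and 0 of the 42 rose. The test was run on log2(FPKM + 0.01) over 17710 genes whose mean reached 1 FPKM, a filter that all 42 passed, and 20.8% of all tested genes fell and 23.7% rose. At an unadjusted limma p below 0.05, 3 genes were lower and 1 was higher. The median log2 fold change (log2FC, given below with its standard error, SE) was 0.13 over the 42 genes and 0.02 over all tested genes, with 29 of the 42 above 0. The WT columns of 8 genes were all higher under HS and those of 3 all lower, where 28.3% and 26.1% of all tested genes showed such a separation. As a share of the summed FPKM of a column, the 42 genes took up 21.1%, 23.0% and 23.6% in WT NS and 19.3%, 18.6% and 15.7% in WT HS. The groups did not overlap, while the summed FPKM of the 42 genes did, at 184666 to 225876 in WT NS and 201551 to 236502 in WT HS. With the columns scaled to equal sums the median over the 42 genes was -0.32, beside -0.43 over all tested genes, and 11 of the 42 were lower, where 43.2% of all tested genes were. After quantile normalization it was -0.42, beside -0.12, and 27 were lower, where 26.9% of all tested genes were. The direction of the set as a whole thus depended on the scaling, whereas LHCB2.3 and LHCB4.3 were lower under each of these.

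LHCB2.3 (AT3G27690) encodes one of 3 copies of the antenna protein LHCB2, which joins LHCB1 in the trimers that move between the photosystems in state transitions. It was at 2476, 3151 and 3496 FPKM in WT NS and at 1624, 1718 and 965 FPKM in WT HS. All HS columns lay below all NS columns, with column 2 the lowest. The log2FC was -1.11 (SE 0.29, limma adjusted p = 0.0151). Without WT NS column 2 it was -1.01 and no longer passed (limma adjusted p = 0.0559), and over all alternatives the limma adjusted p ran from 1.77e-09 to 0.0559. Its sister copies were at higher levels. LHCB2.2 was at 4362, 4837 and 5328 FPKM in NS and at 4265, 3924 and 3358 FPKM in HS, so its columns were also all lower, but its limma adjusted p was 0.413. LHCB2.1 was at 4936, 5181 and 5870 FPKM in NS and 4995, 4676 and 4179 FPKM in HS, with overlap.

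LHCB4.3 encodes an isoform of the minor antenna protein CP29, which links the trimers to the core of photosystem II. Under HS it was at 43.2, 54.0 and 38.3 FPKM, below all of its NS columns of 63.1, 64.4 and 92.5 FPKM. The log2FC was -0.69 (SE 0.17, limma adjusted p = 0.0104). With the columns centred on the median of the 42 genes it was -0.86 and did not pass (limma adjusted p = 0.190). The other isoforms stood far above it and did not share this pattern of columns. LHCB4.1 was at 4101, 4309 and 4844 FPKM in NS and 5526, 5448 and 4912 FPKM in HS (limma adjusted p = 0.524), all columns being higher. LHCB4.2 was at 2874 to 3423 FPKM in NS and 3079 to 3608 FPKM in HS, with overlap (limma adjusted p = 0.68).

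The 250 bases before the annotated starts of the genes that fell are shown for LHCB2.3 (chr3:10255656-10255905, plus strand) and LHCB4.3 (chr2:16745378-16745627, plus strand), and for the sister copy LHCB2.2 (chr2:1800473-1800722, minus strand), from the RefSeq genome and annotation of TAIR10.1. Capitals mark the G-box CACGTG, the letters CCAATC and the I-box GATAA on either strand, short elements often named in promoters of photosynthesis genes:
LHCB2.3: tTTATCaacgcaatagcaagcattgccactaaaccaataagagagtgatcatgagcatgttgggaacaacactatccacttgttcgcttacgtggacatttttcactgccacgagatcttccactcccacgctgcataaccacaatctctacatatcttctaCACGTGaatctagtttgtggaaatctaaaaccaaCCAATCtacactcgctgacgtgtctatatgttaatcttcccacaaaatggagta
LHCB2.2: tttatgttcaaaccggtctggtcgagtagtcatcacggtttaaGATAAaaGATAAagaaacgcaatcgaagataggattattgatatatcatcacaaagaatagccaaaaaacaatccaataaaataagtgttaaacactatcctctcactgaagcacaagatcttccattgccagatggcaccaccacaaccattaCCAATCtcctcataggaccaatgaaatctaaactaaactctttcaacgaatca
LHCB4.3: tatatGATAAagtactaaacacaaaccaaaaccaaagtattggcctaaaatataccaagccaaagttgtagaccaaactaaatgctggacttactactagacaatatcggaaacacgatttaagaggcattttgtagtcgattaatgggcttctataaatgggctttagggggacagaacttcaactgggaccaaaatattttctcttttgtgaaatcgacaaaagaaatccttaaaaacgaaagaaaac
LHCB2.3 holds all 3 elements, LHCB2.2 lacks the G-box, and LHCB4.3 holds the I-box alone. The same letters were searched on both strands from 250 bases before to 50 bases after the start of 26686 protein-coding genes. The G-box was in 14 of the 42 windows (33.3%) and in 7.78% of all windows. CCAATC was in 15 (35.7%) against 12.3%, and GATAA in 39 (92.9%) against 60.9%. The core of the heat shock element, GAANNTTC, was in 2 of the 42 windows (4.76%) and in 11.5% of all. The same core with a further unit at its end, the trimer of the heat shock element, was in 0 of the 42 and in 0.491% of all windows. A match here is a run of letters and not a site of binding.

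Among the LHCB genes that did not pass the test under HS, LHB1B1 (AT2G34430, LHCB1.4) was the farthest from its NS level. It was at 3194, 3720 and 3819 FPKM in WT NS and at 5493, 5476 and 5103 FPKM in WT HS, and the columns of the groups were well apart. The log2FC was 0.59 (SE 0.24, limma adjusted p = 0.0726). It passed in 4 of 23 alternatives, among them the fit to the 6 WT columns alone. LHB1B2 and CAB3 were likewise higher in all HS columns, at 14946 to 15887 against 11564 to 13815 FPKM and at 9764 to 12510 against 7871 to 9300 FPKM. CAB1, CAB2, LHCB3, LHCB5 and LHCB6 overlapped between NS and HS. LHCB5 and LHCB6 encode the monomeric antenna proteins CP26 and CP24. In the 12 LHCB genes that were not called, log2FC values ran from -0.33 to 0.59.

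Of the LHCA genes, LHCA1 and LHCA2, which encode major antenna proteins of photosystem I, were higher in all HS columns without passing the test. LHCA1 (AT3G54890) was at 5638, 6324 and 6940 FPKM in NS and 8805, 8215 and 7636 FPKM in HS (limma adjusted p = 0.37), with a log2FC of 0.39 that turned to -0.073 after quantile normalization and -0.070 with equal column sums. LHCA3 and LHCA4 overlapped. Lhca5 and Lhca6 both had a log2FC of -0.29, with limma adjusted p of 0.0839 and 0.208, and their columns overlapped.

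Over the 12 PSA genes of photosystem I, log2FC values lay between -0.06 and 0.30. Only PSAE-2 had all HS columns above its NS columns, at 1247, 1249 and 1182 against 910, 975 and 1105 FPKM (limma adjusted p = 0.121). PSAF, which docks plastocyanin, was at 5206 to 6351 FPKM in NS and 5777 to 7291 FPKM in HS. PSAH2 and PSAL, which with PSAO form the side where LHCB trimers bind photosystem I in state transitions, overlapped as well, as did PSAO. So did PSAD-1, PSAD-2 and PSAE-1, stromal subunits at the ferredoxin docking site, the membrane subunits PSAG and PSAK, PSAH-1, and the lumenal subunit PSAN.

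In the PSB family log2FC values ran from -0.27 to 0.46. The extremes were NPQ4 (AT1G44575), which encodes PSBS, the sensor of lumen pH in the dissipation of excess light, and PSBX, a small membrane subunit. NPQ4 was at 2682, 3144 and 3660 FPKM in NS and 2905, 2802 and 2174 FPKM in HS (limma adjusted p = 0.373). For PSBX the low NS column 2 lay apart from the other two and the groups overlapped in part (limma adjusted p = 0.335). PSBO2 (AT3G50820), a copy of the manganese-stabilising protein of the oxygen-evolving complex, was higher in all HS columns, at 2560, 2477 and 2300 against 1643, 1769 and 2072 FPKM, with a log2FC of 0.43 (limma adjusted p = 0.107), which was -0.43 after quantile normalization and -0.030 with equal column sums. Its partner PSBO1 was at 5245 to 6616 FPKM in NS and 5639 to 6424 FPKM in HS, with overlap. PSBP-1, PSBQA and PSBQ-2, the other extrinsic proteins of this complex, overlapped too, and so did PSBR and the small membrane subunits PSBW and PSBY.

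**Figure D3:**
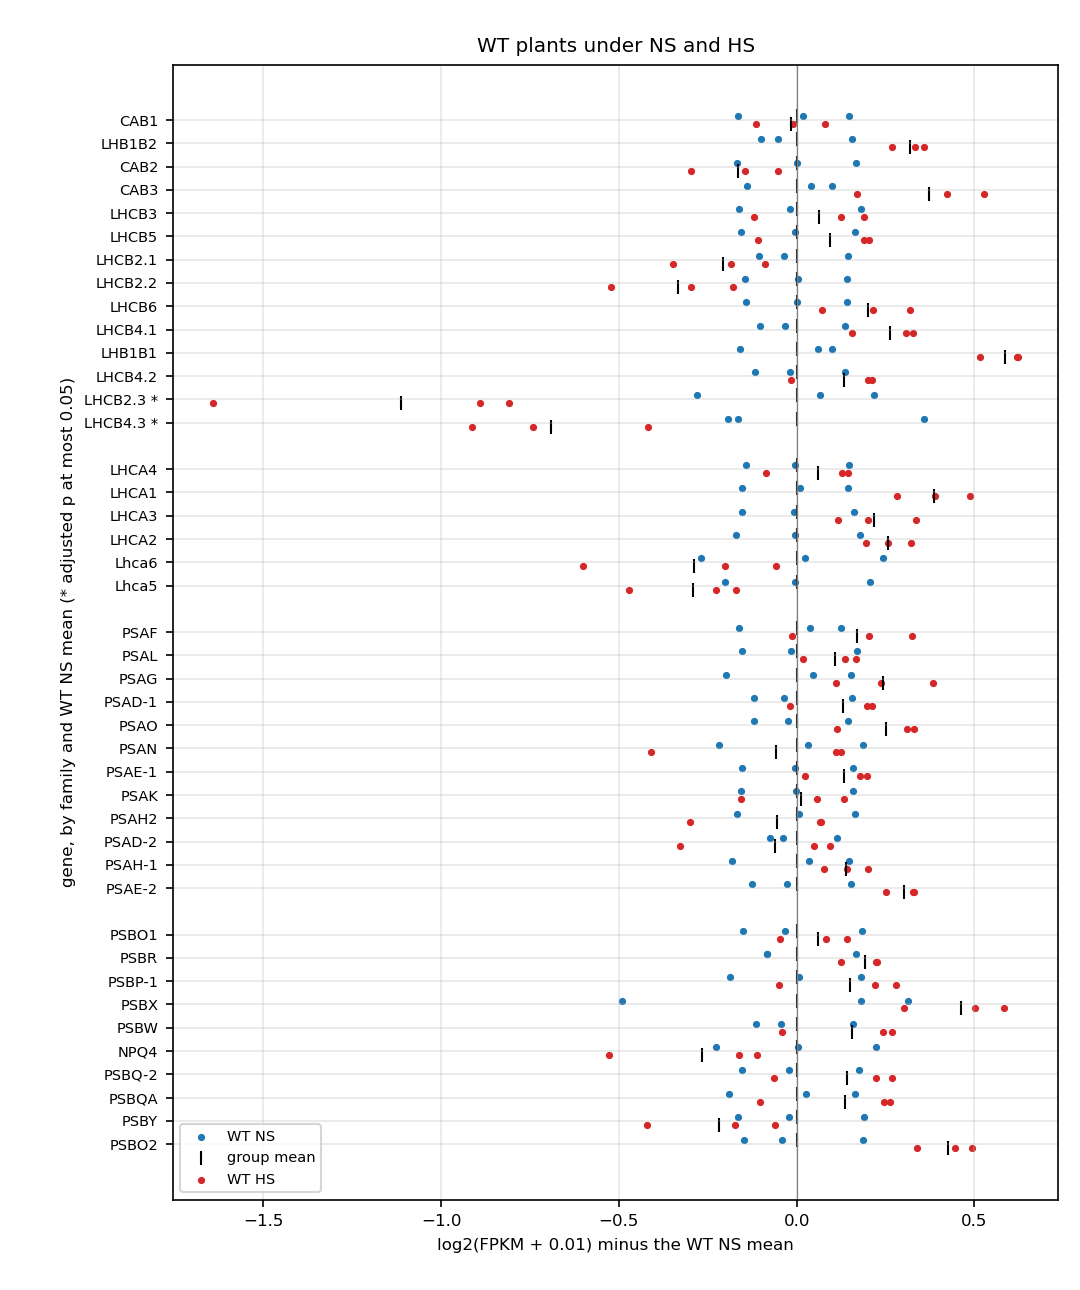
Values of the 6 WT columns for each of the 42 genes as log2(FPKM + 0.01) minus the WT NS mean (x axis), with WT NS in blue, WT HS in red and the group means as black ticks. LHCB2.3 and LHCB4.3, marked with an asterisk, have all HS columns to the left of NS with means at -1.11 and -0.69, while LHB1B1 has its HS mean at 0.59.

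The second comparison set unstressed 35S:HSFA1b plants against unstressed WT plants, to see what HSFA1b overexpression does without heat. Here limma called 20 of the 42 genes lower and 0 higher at the same threshold, where 3.65% of all tested genes were called lower and 6.12% higher. By family these were 8 of 14 LHCB, 3 of 6 LHCA, 4 of 12 PSA and 5 of 10 PSB genes. Values of log2FC of the 20 lay between -1.41 (LHCB3) and -0.57 (PSAE-2), and the median over all 42 was -1.10, beside -0.01 over all tested genes. At an unadjusted limma p below 0.05 all 42 were lower and 0 higher. The count depended on single columns of both genotypes. It was 11 without WT NS column 0, 1 without WT NS column 1, 1 without WT NS column 2, 2 without 35S:HSFA1b NS column 0 and 1 without 35S:HSFA1b NS column 1, and 3 with no filter on low genes. Of all tested genes 0.480% to 4.39% were called lower in these fits. Without 35S:HSFA1b NS column 2, 40 genes were lower, all but Lhca5 and Lhca6, with a median of -1.45, where 2.58% of all tested genes were lower. With column 2 as the only 35S:HSFA1b NS column the median was -0.39, beside -0.04 over all tested genes. The lone column has no spread of its own, so no count is given for this fit. Under cyclic loess normalization, which removes trends with level between columns, 2 were lower and the median was -0.19. Under quantile normalization 1 was lower and the median was -0.040. Of all tested genes 1.77% and 3.13% were called lower under these 2 settings. Quantile normalization gives every column the same set of values, and 34 of the 42 genes were among the 50 highest loci in WT NS. It thus largely removes a drop shared by the highest loci, so it cannot decide whether there was one.

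Column by column, columns 0 and 1 lay below every WT NS column for all 42 genes. Column 2 did so for 37, the exceptions being PSBR, PSBX, PSAE-1, PSAH-1 and PSBO2, whereas 19.8% of all tested genes had all 3 columns below WT NS. The genes at the highest levels were the farthest below WT in columns 0 and 1. CAB1 was at 4095 and 4324 FPKM in these, 14.7% and 15.6% of its WT NS mean, and at 21188 FPKM in column 2. It did not pass the test, with a log2FC of -1.94 (SE 0.58, limma adjusted p = 0.0689). Lhca5 was at 160, 163 and 171 FPKM against 195 to 258 FPKM in WT NS, and its columns 0 and 1 were at 70.8% and 72.2% of the WT mean. The ratio of the highest to the lowest of the 42 genes was 331 to 435 in the WT NS columns, 130 and 133 in columns 0 and 1 and 645 in column 2. Over the 42 genes the slope of log2 level against the WT NS mean was 0.98 to 1.01 in the WT NS columns, 0.79 and 0.79 in columns 0 and 1 and 1.04 in column 2. The share of the summed FPKM was 9.98%, 10.1% and 19.0% in these 3 columns.

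LHCB4.3 did not show the split between the columns of 35S:HSFA1b NS. It stood at 31.5, 32.6 and 32.8 FPKM, below the WT NS columns of 63.1 to 92.5 FPKM in each. The log2FC was -1.16 (SE 0.17, limma adjusted p = 0.00388), the smallest adjusted p of the 42. It also passed with equal column sums and under cyclic loess and quantile normalization. It no longer passed with column 2 alone, at -1.14 (limma adjusted p = 0.169), or with the columns centred on the median of the 42 genes, at -0.072 (limma adjusted p = 0.865). At its level of 30 to 100 FPKM the 2826 other genes had medians of -0.10, -0.08 and -0.11 in these columns. LHCB2.3 was at 1062, 1142 and 1912 FPKM, all below WT NS. Its log2FC was -1.19 (limma adjusted p = 0.0403), and it passed under 13 of 24 alternatives. LHB1B1 was at 1126, 1275 and 2121 FPKM, below all WT NS columns, with a log2FC of -1.30 (limma adjusted p = 0.0118). It passed under 17 of 24 alternatives and did not without WT NS column 1 (limma adjusted p = 0.0566), WT NS column 2 (0.0565) or 35S:HSFA1b NS column 1 (0.0612), after quantile normalization (0.114) or with column 2 alone (0.145). In column 2 it was at 59.3% of its WT NS mean, which after LHCB4.3 at 44.8% was the lowest value of the 42 in that column. NPQ4 and LHCB2.3 followed, both at 62.9%, and the highest was PSBR at 99.6%.

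The remaining comparisons take in heated 35S:HSFA1b plants. Within this genotype, heat changed 0 of the 42 genes, where 22.6% of all tested genes were called higher and 19.7% lower by limma over all 12 columns. At an unadjusted limma p below 0.05 there was 1 gene higher, LHCB4.3, and 0 lower. The median log2FC was -0.09. This again rested on column 2 of the NS group. Without it 8 genes were higher (CAB3, LHB1B1, LHCB4.1, LHCB6, LHCA1, PSAE-2, PSAO and PSBO2), where 18.1% of all tested genes were higher in that fit, and the median was 0.25. With it alone 32 were lower, where 10.8% of all tested genes were, and the median was -0.81.

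Between the genotypes under HS, 38 of the 42 genes were lower in 35S:HSFA1b and 0 higher, where 16.8% of all tested genes were called lower and 12.1% higher. At an unadjusted limma p below 0.05 the counts were also 38 and 0. The median was -1.32, beside -0.03 over all tested genes. The 4 that were not called were LHCB2.3, LHCB4.3, Lhca5 and Lhca6, which had log2FC values between -0.57 and -0.10. All 38 also had non-overlapping columns, where 23.8% of all tested genes did in this direction. CAB1 had the largest difference, at 5341, 4886 and 4552 FPKM against 25543 to 29252 FPKM in WT HS (log2FC -2.48, SE 0.51, limma adjusted p = 0.00464). LHB1B1 had the smallest adjusted p, at 1828, 1769 and 1825 FPKM against 5103 to 5493 FPKM (log2FC -1.57, SE 0.21, limma adjusted p = 0.000312). The count was 22 after cyclic loess normalization, where 13.9% of all tested genes were lower, with a median of -0.31. After quantile normalization limma called 0 lower and 2 higher, with 1 and 4 at an unadjusted p below 0.05, and the median was 0.066. Of all tested genes 11.1% were lower and 13.1% higher in that setting. There CAB1, the highest locus in every column, had a log2FC of 0.0, since this scaling gives the highest locus of each column the same value. The 42 genes held 10.4%, 9.80% and 9.72% of the summed FPKM in 35S:HSFA1b HS.

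Only LHCB4.3 of the 42 responded to HS differently in the 2 genotypes by the limma interaction test, with the higher value in 35S:HSFA1b, where 3.94% of all tested genes were called higher and 7.97% lower. In 35S:HSFA1b HS it was at 40.5, 40.7 and 43.8 FPKM, above all of its NS columns of 31.5 to 32.8 FPKM, while in WT its HS columns were below all NS columns. Its log2FC under HS was -0.69 in WT and 0.37 in 35S:HSFA1b (SE 0.15, limma adjusted p = 0.074). The difference of the 2 was 1.06 (SE 0.21, limma adjusted p = 0.0108), and it passed without any one of the 12 columns in turn. With the columns centred on the median of the 42 genes, 1 other gene was called higher. There the difference for LHCB4.3 was 1.39 and did not pass (limma adjusted p = 0.121). With 35S:HSFA1b NS column 2 alone it was 1.03 and did not pass (limma adjusted p = 0.0818). In that fit the median difference over the 42 genes was -0.92, beside 0.01 over all tested genes, while with all columns it was -0.24. For LHCB4.3, heated plants of both genotypes were at like levels, 38.3 to 54.0 FPKM in WT and 40.5 to 43.8 FPKM in 35S:HSFA1b. The log2FC between them was -0.10 (limma adjusted p = 0.653), which turned to 0.58 with equal column sums.

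**Figure D4:**
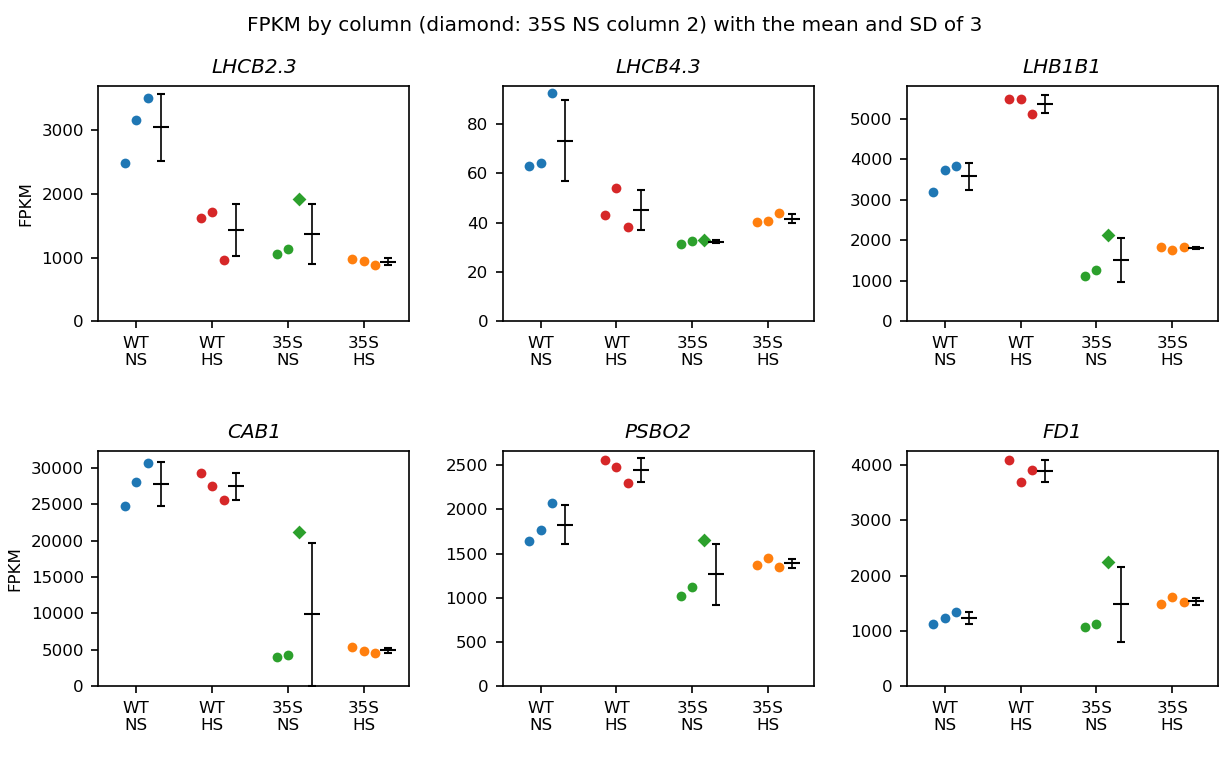
FPKM of 6 genes by group (x axis), with 1 point per column, a diamond for column 2 of 35S:HSFA1b NS and the mean and SD of 3 columns in black, on linear axes from 0. LHCB4.3 has its 3 columns of 35S:HSFA1b NS together at 31.5 to 32.8 FPKM, while for CAB1 the diamond at 21188 FPKM lies far above the other columns of its group at 4095 and 4324 FPKM.

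Where several genes encode one subunit, the share of each copy is a ratio within a column and does not depend on a linear scaling of that column. It can shift with a trend by level, however. The slope of log2 level over the 42 genes against their WT NS mean was 0.98 to 1.01 in WT NS. It was 1.09, 1.06 and 1.10 in WT HS, 0.79, 0.79 and 1.04 in 35S:HSFA1b NS and 0.82, 0.80 and 0.78 in 35S:HSFA1b HS. The part of these slopes in the shares was not tested. PSBO2 made up 23.8%, 23.7% and 23.8% of the summed PSBO FPKM in NS and 28.5%, 28.6% and 29.0% in HS. It was 34.2%, 34.9% and 27.9% in 35S:HSFA1b NS and 37.0%, 37.6% and 37.8% in 35S:HSFA1b HS, so that HS was above NS and 35S:HSFA1b above WT in all columns. LHCB2.3 made up 21.0%, 23.9% and 23.8% of LHCB2 in WT NS and 14.9%, 16.7% and 11.3% in WT HS. It held 24.8%, 25.2% and 19.6% in 35S:HSFA1b NS and 22.1%, 22.3% and 21.8% in 35S:HSFA1b HS, where the groups overlapped. LHB1B1 held 5.78%, 6.05% and 5.65% of LHCB1 in WT NS and 7.68%, 8.11% and 8.03% in WT HS. CAB1 held 44.7%, 45.5% and 45.4% in WT NS and 40.9%, 40.7% and 40.2% in WT HS, again without overlap but in the other direction. In 35S:HSFA1b NS the share of CAB1 was 31.6% and 30.7% in columns 0 and 1 and 44.5% in column 2, so that column 2 was close to WT NS. LHB1B1 was at 8.69%, 9.07% and 4.46% in the same columns. Every copy of LHCB4, PSAD, PSAE and PSAH, like all those of LHCB1, LHCB2 and PSBO, also had WT shares without overlap between NS and HS. Of these subunits only PSBQ overlapped, with PSBQA at 46.1% to 47.6% in NS and 46.1% to 47.2% in HS. For 3 columns against 3 the smallest exact permutation p, two-sided, is 0.1, so no test is given for these shares.

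**Figure D5:**
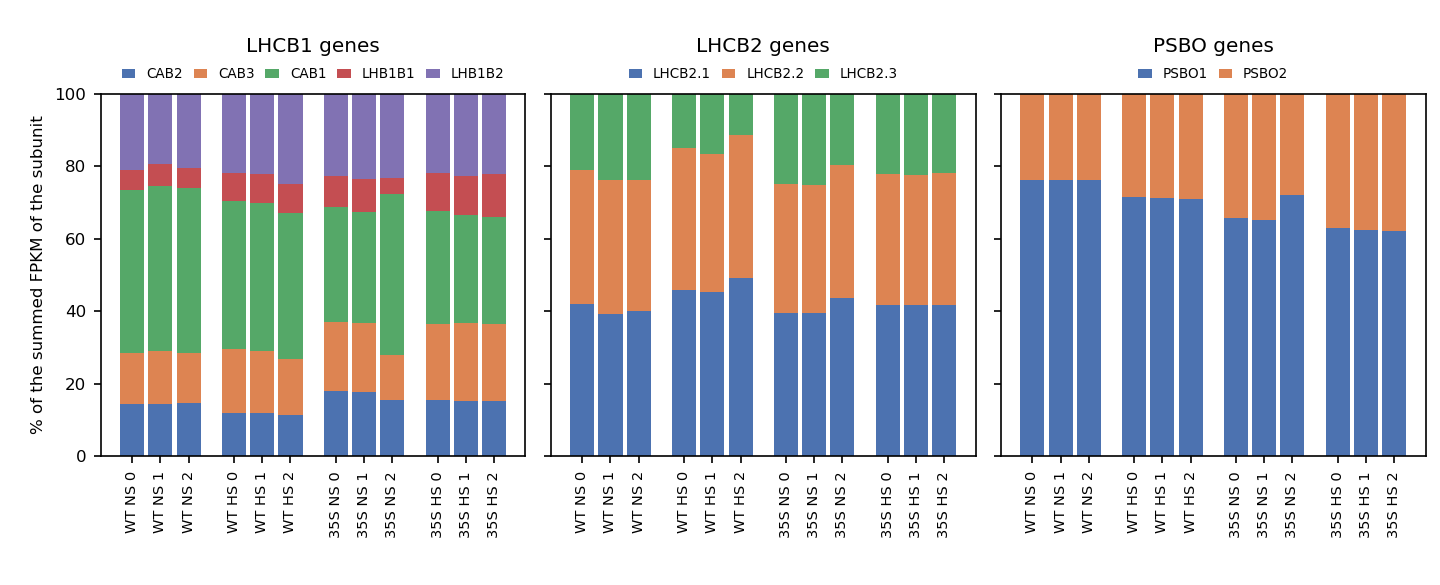
Share of each gene copy in the summed FPKM of its subunit (y axis, %) in each of the 12 columns (x axis), for the LHCB1, LHCB2 and PSBO genes. PSBO2 takes 23.7% to 23.8% in WT NS and 28.5% to 29.0% in WT HS, and the CAB1 share in 35S:HSFA1b NS column 2, at 44.5%, stands with WT NS and not with columns 0 and 1.

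Genes that work with the photosystems were counted from lists of electron transport, chlorophyll synthesis, regulation, assembly and repair, and of relatives of the antenna proteins. In WT under HS, 3 of 14 genes of electron transport and ATP synthase rose, where 23.7% of all tested genes did. With equal column sums 1 was higher and 9 were lower, and after quantile normalization 2 were higher and 11 lower. Of all tested genes 43.2% were lower and 1481 of 17836 higher with equal sums. After quantile normalization 26.9% were lower and 2822 of 17710 higher. The 3 of 14 that rose were FD1, which encodes a leaf ferredoxin, FNR2, a ferredoxin-NADP reductase, and PGRL1B, a protein of cyclic electron flow. FD1 was at 1126, 1236 and 1341 FPKM in WT NS and 4086, 3685 and 3903 FPKM in WT HS. Its log2FC was 1.66 (SE 0.27, limma adjusted p = 0.00155), and it passed under all 23 alternatives. In 35S:HSFA1b it was at 1065, 1121 and 2255 FPKM under NS and 1486, 1607 and 1530 FPKM under HS. The median log2FC of the 14 was 0.03, beside 0.02 over all tested genes.

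Of 14 genes of chlorophyll synthesis 3 rose and 4 fell in WT under HS, beside 23.7% and 20.8% of all tested genes. With equal column sums these counts were 1 and 7, and after quantile normalization 2 and 8. Of all tested genes 1481 of 17836 rose and 43.2% fell with equal sums, and 2822 of 17710 rose and 26.9% fell after quantile normalization. PORB, a light-dependent protochlorophyllide oxidoreductase, rose from 103, 106 and 120 to 312, 301 and 232 FPKM (log2FC 1.36, limma adjusted p = 9.3e-05). PORA, of the same enzyme family, was low at 1.02 to 3.54 FPKM in NS and 3.79 to 6.59 FPKM in HS, and did not pass when any of 5 of the 6 WT columns was left out. Those that fell included HEMA1, which encodes glutamyl-tRNA reductase at the start of the pathway, GUN4, an activator of magnesium chelatase, and CH1, chlorophyllide a oxygenase, which makes chlorophyll b for the antenna. HEMA1 went from 598, 756 and 850 to 370, 350 and 283 FPKM (log2FC -1.13, limma adjusted p = 0.00066). GUN4 and CH1 had log2FC values of -0.96 and -0.84 (limma adjusted p = 0.0094 and 0.0032). In 35S:HSFA1b under HS, 5 of the 14 rose and 3 fell, beside 22.6% and 19.7%.

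Of 4 regulators, 2 fell under HS in both genotypes, where 20.8% of all tested genes fell in WT and 19.7% in 35S:HSFA1b. GLK1 (GPRI1 in the annotation), a transcription factor of photosynthesis genes, went from 318, 285 and 315 to 193, 169 and 144 FPKM in WT (log2FC -0.87, limma adjusted p = 0.0017), and from 209, 233 and 284 to 111, 98.6 and 111 FPKM in 35S:HSFA1b. GLK2 went from 152, 167 and 198 to 129, 117 and 78.7 FPKM in WT (log2FC -0.69, limma adjusted p = 0.018) and did not pass without WT NS column 2. In 35S:HSFA1b it went from 114, 113 and 140 to 45.5, 41.4 and 46.3 FPKM.

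Among 6 relatives of the antenna proteins in stress and assembly, ELIP1 rose and ELIP2 fell in WT under HS, beside 23.7% and 20.8% of all tested genes. Both encode early light-induced proteins. ELIP1 was at 50.6, 72.9 and 85.2 FPKM in NS and 123, 116 and 214 FPKM in HS (log2FC 1.09, limma adjusted p = 0.0095), and ELIP2 at 8.38, 21.2 and 26.3 against 4.75, 5.78 and 5.73 FPKM (log2FC -1.63, limma adjusted p = 0.0067). Of 18 genes of targeting, assembly and repair, 3 rose and 4 fell, beside the same 23.7% and 20.8%. With equal column sums 0 rose and 8 fell, where 1481 of 17836 tested genes rose and 43.2% fell. After quantile normalization 0 rose and 9 fell, where 2822 of 17710 tested genes rose and 26.9% fell. Those called included cpSRP43 (CAO in the annotation), a subunit of the particle that guides antenna proteins to the thylakoid, with -0.87 (limma adjusted p = 0.0048), FTSH1, a protease of photosystem II repair, with -0.53 (limma adjusted p = 0.0041), and TAP38, the phosphatase of LHCB proteins, with 0.50 (limma adjusted p = 0.0059). The other genes that rose, DEG1 and VAR2, both proteases of photosystem II repair, had 0.33 each (limma adjusted p = 0.0165 and 0.0399), and both turned sign after quantile normalization and with equal column sums. VAR2 passed under 10 of 23 alternatives and lost its call when any of 5 of the 6 WT columns was left out, and DEG1 passed under 15 of 23 and lost it without WT NS column 1 (limma adjusted p = 0.0688) or WT HS column 1 (0.0516). TAP38 did not pass after quantile normalization or with equal column sums. In 35S:HSFA1b under HS 9 of the 18 rose and 2 fell, beside 22.6% and 19.7% of all tested genes. In unstressed 35S:HSFA1b plants 8 of 14 electron transport, 4 of 14 chlorophyll synthesis, 2 of 6 antenna-relative and 4 of 18 assembly genes were lower than in WT. Of the 4 regulators 0 were lower, and 3.65% of all tested genes were. With single columns omitted the first 4 counts ran from 0 to 8, 1 to 6, 0 to 4 and 0 to 6, and that of the regulators stayed at 0.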

How the data were processed

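Leaf RNA libraries (TruSeq) of 12 samples were sequenced, 3 per group. The authors aligned reads to TAIR10 with GSNAP and estimated FPKM with Cufflinks and Cuffdiff under geometric normalization. Their versions are not given in the sources used here. The deposited table holds FPKM and no counts, so depth and counting error are unknown. Columns were assigned to groups by name, and their digits were not matched to single libraries.

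Differences were fitted with limma 3.58.1 in R 4.3.3 (empirical Bayes with a trend) on log2(FPKM + 0.01), which understates changes of low genes, for genes whose mean over the fitted columns reached 1 FPKM, with Benjamini-Hochberg adjustment over all tested genes and a threshold of 0.05. All WT columns with those of unstressed 35S:HSFA1b, 9 in number, served the first 2 comparisons (17710 genes), and all 12 columns the others (17720 genes). The study describes 3 biological replicates, and p-values cover the spread between these samples only. Alternatives were other pseudocounts, filters, thresholds, normalizations, weights, fits and omitted columns. The models were tested on simulated data. Symbols, positions and sequences came from RefSeq TAIR10.1, and only the locus identifiers tie these to the table.

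The members and lists were chosen with earlier results of these data known. Any of the 42 genes could be named, with fold change and adjusted p where it passed and with values otherwise. From each other list, up to 4 called genes per direction were taken in order of absolute fold change, and HSFA1b as the check of the genotype. The adjusted p of some genes that did not pass is also given, which was decided after their values were seen.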

Additional observations from a re-analysis of the deposited data

Results flagged for a closer look

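The HS response of LHCB4.3 differed between the genotypes by 1.06 on the log2(FPKM + 0.01) scale (limma adjusted p = 0.0108 for the difference). That of FD1 differed by -1.51 (limma adjusted p = 0.0173). For FD1 the WT columns went from 1126 to 1341 FPKM in NS to 3685 to 4086 FPKM in HS, while 35S:HSFA1b NS column 2, at 2255 FPKM, lay above all 3 HS columns of its genotype at 1486 to 1607 FPKM.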

How the results depend on the processing

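Counts are of the 42 genes, medians are log2 fold changes, and the cause of a change between settings was not tested. Quantile normalization largely removes a shift shared by the highest loci. In WT under HS, 1 gene fell by a log2 value of 1 or more, 0 at an adjusted p of 0.01, 27 after quantile normalization, 6 after cyclic loess normalization (2 rose), 11 with equal column sums and 4 after removal of GC content and length trends. There 1 rose with column quality weights, 1 in the fit to all 12 columns and 3 in the fit to the WT columns alone. Of all tested genes, 5.75% fell by 1 or more and 12.2% at an adjusted p of 0.01. After quantile normalization 26.9% fell, after loess 20.0% (23.2% rose), with equal sums 43.2% and without GC content and length trends 20.0%. Those that rose were 30.3% with weights, 26.3% in the fit to 12 columns and 20.5% in the fit to the WT columns. Medians were -0.42 (quantile), -0.32 (equal sums), -0.061 (GC content and length) and -0.040 (columns centred on the 42 genes). For 35S:HSFA1b against WT in NS, 1 was lower at an adjusted p of 0.01, 3 with no filter, 1 after quantile and 2 after cyclic loess normalization. With other settings 34 (equal sums), 38 (weights), 5 (centred columns, 3 higher), 37 (fit to 12 columns) and 7 (fit to the groups compared) were lower. Called lower among all tested genes were 0.373% at 0.01, 1.85% with no filter, 3.13% after quantile, 1.77% after loess and 0.471% with equal sums. They were 13.5% with weights, 0.141% with centred columns (69.6% higher), 6.61% in the 12-column fit and 6.02% in the fit to the groups compared. Medians were -0.040 (quantile), -0.19 (loess), -0.015 (centred) and -0.39 (35S:HSFA1b NS column 2 alone). Within 35S:HSFA1b under HS, 22 were lower after quantile normalization (median -0.29), 4 after loess (1 higher, median -0.18), 2 with equal sums (median -0.24), 1 with weights (1 higher), 1 with centred columns (1 higher, median 0.064) and 32 with column 2 alone (median -0.81), the median was -0.15 after removal of GC content and length trends, and 1 was higher in the fit to the groups compared. Within 35S:HSFA1b, 19.3% of all tested genes were lower after quantile, 19.2% after loess (20.9% higher) and 21.0% with equal sums. With weights these were 24.6% (28.2% higher), with centred columns 4.77% (5.73% higher), and 25.8% were higher in the fit to the groups compared. For the genotypes in HS, 0 were lower and 2 higher after quantile normalization (median 0.066), 22 lower after loess (median -0.31), 3 higher and 29 lower with equal sums (median -0.64), 13 higher and 3 lower with centred columns (median 0.10), and the median was -1.12 after removal of GC content and length trends. Of all tested genes, 11.1% were lower and 13.1% higher after quantile and 13.9% lower after loess. With equal sums 67.8% were higher and 647 of 17832 lower, with centred columns 86.1% and 0.971%. For the difference of responses, 0 were higher at an adjusted p of 0.01, where 0.976% of all tested genes were. With column 2 alone the median was -0.92, beside 0.01 over all tested genes. The settings of column 2 alone, centred columns and loci up to 1000 FPKM were added after seeing the data.

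LHCB4.3 between genotypes in HS turned to 0.58 with equal sums, 0.097 after removal of GC content and length trends, 1.32 with centred columns and 0.035 without WT HS column 1, in a range of -0.21 to 0.035 when each column was left out. Log2 fold changes in WT under HS turned to -0.43 for PSBO2, -0.073 for LHCA1, -0.047 for DEG1 and -0.30 for VAR2 after quantile normalization, and to -0.030, -0.070, -0.13 and -0.12 with equal sums. Shares of summed FPKM became 26.3% (WT NS), 23.4% (WT HS) and 11.7% (35S:HSFA1b HS) over loci up to 1000 FPKM, and 10.3% (35S:HSFA1b HS) without the 10 highest other loci.

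Leaving out each column in turn gave 0 to 0 higher, 1 to 3 lower and a median of 0.05 to 0.21 in WT under HS. It gave 0 to 0 higher, 1 to 40 lower and -1.45 to -0.91 for the genotypes in NS, and 0 to 8 higher, 0 to 0 lower and -0.27 to 0.25 within 35S:HSFA1b. It gave 0 to 0 higher, 38 to 39 lower and -1.39 to -1.24 for the genotypes in HS, and 1 to 1 higher, 0 to 0 lower and -0.41 to 0.15 for the difference. Shares were 22.1% to 23.3% in WT NS, 17.2% to 18.9% in WT HS, 10.1% to 14.6% in 35S:HSFA1b NS and 9.76% to 10.1% in 35S:HSFA1b HS.

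With the column digit as a replicate block, 2 genes were lower in 35S:HSFA1b NS and the other counts did not move. Deviations of same-digit columns correlated between -0.38 and 0.18 over 18 pairs, of which 1 was above 0.1. The digits were not matched to libraries, so this cannot show whether samples of different groups were handled together. The table holds no read counts, so counting error could not be set beside any value.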
